A study of Homo sapiens with 8 samples.

Results

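The data described here are the miRNAs counted in exosomes, small membrane vesicles that cells release, from macrophage-type cells. They come from 2 of the 8 samples of the series: M0-exo (1 library) and M2-exo (1 library), taken as the 2 count columns of the exosome table with all of its 286 entries. Both exosome groups came from THP-1, a human monocytic leukaemia line labelled wild type and grown in medium with 10% fetal bovine serum. By convention, M0 stands for macrophages that have not been polarised and M2 for the alternatively activated state. The labels give no polarising agent, time or method of exosome isolation, and they list the cell type of this leukaemia line as stem cells. The other samples are mRNA libraries of Caco-2 cells and are not used here. With 1 library in each group there is no replicate check, so every ratio below compares 2 libraries and not 2 conditions.

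miRNAs are short RNAs cut from hairpin precursors. Each hairpin can give a 5p product from its 5′ arm and a 3p product from its 3′ arm, and usually 1 of them is kept by an Argonaute protein and guides it to mRNAs. Pairing rests mostly on the seed, bases 2 to 8 of the mature miRNA, so miRNAs with the same seed form a family with overlapping targets. Many hairpins lie close together in the genome and are transcribed as 1 primary transcript. Exosomes carry miRNAs between cells, and their content is known to differ from that of the cells that release them.

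Mature sequences of some of the most abundant entries, and of some family and cluster members compared below, are shown first. Family membership and the counting of reads follow from the sequences. They are human RefSeq sequences with positions in GRCh38.p14, and 249 of the 286 entries were matched to one by name. These made up 89.0% of the counts of M0-exo and 88.8% of those of M2-exo. Capitals mark the seed.
miR-21-5p: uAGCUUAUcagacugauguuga
miR-148a-3p: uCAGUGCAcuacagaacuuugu
let-7f-5p: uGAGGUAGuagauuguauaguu
let-7i-5p: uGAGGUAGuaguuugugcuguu
let-7a-5p: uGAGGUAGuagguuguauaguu
miR-30c-5p: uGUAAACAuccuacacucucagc
miR-92a-3p: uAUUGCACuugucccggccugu
miR-26a-5p: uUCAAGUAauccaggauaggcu
miR-23a-3p: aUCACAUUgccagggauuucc
miR-27a-3p: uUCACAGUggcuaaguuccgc
miR-27b-3p: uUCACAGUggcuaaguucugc
miR-221-3p: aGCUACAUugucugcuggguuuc
miR-222-3p: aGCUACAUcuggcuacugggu

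Several pairs of entries had reverse-complement sequences and equal counts, and this bears on every total below. In such a pair, 1 sequence read backwards and complemented gives the other, so that a read aligned without regard to strand matches both. In the next lines, capitals mark the bases that are reverse complementary to the partner.
miR-423-5p: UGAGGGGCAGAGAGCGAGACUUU
miR-3184-3p: AAAGUCUCGCUCUCUGCCCCUCA
miR-7-5p: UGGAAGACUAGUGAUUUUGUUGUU
miR-3529-3p: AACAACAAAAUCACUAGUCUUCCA
miR-203a-3p: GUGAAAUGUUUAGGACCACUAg
miR-203b-5p: UAGUGGUCCUAAACAUUUCACa
The entry miR-423-5p held 61 counts in M0-exo and 58 in M2-exo, and miR-3184-3p held 61 and 58. They lie at the same bases on opposite strands, chr17:30117095-30117117 in GRCh38.p14, within the span of NSRP1. For miR-7-5p and miR-3529-3p the counts were 69 and 48 in each entry. For miR-203a-3p, known from skin epithelium, and miR-203b-5p they were 21 and 31 in each.

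In all, 17 pairs of entries shared a reverse-complementary run of at least 18 bases, a limit set after these pairs had been seen. The counts were equal in both libraries in 13 of the 17. Of the 6 pairs with at least 20 counts in each entry, 4 were equal. The other 2 differed by at most 3 counts: miR-423-3p with miR-3184-5p, and miR-103a-3p with miR-103b. The largest gap of any pair was 5 counts, between miR-582-3p and miR-582-5p. Counting each of these reads in 1 entry only would take 271 counts, or 2.00%, from M0-exo and 202, or 2.03%, from M2-exo. A further pair with equal counts, miR-122-5p and miR-122b-3p at 24 and 22 in each, and the nearly equal arms of miR-486, at 84 and 83 in M0-exo and 95 and 91 in M2-exo, could not be compared by sequence. The strand setting of the counting is not given in the sources used here. Such counts cannot tell which entry of such a pair was present.

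The library totals were 13584 counts in M0-exo and 9929 in M2-exo, so 1 count was 0.00736% of M0-exo and 0.0101% of M2-exo. M0-exo listed 232 of the 286 entries and M2-exo 208. At equal depth this gap closed: 209.4 entries were expected in M0-exo when thinned to the M2-exo total. A single count was all that stood behind 75 entries in M0-exo and 58 in M2-exo. Intervals throughout are exact 95% intervals. They cover counting error only, because no molecular identifiers were given and repeated reads may stem from 1 molecule.

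The counts were concentrated in few miRNAs. In both libraries miR-21-5p, a miRNA abundant in many cell types and in tumour lines, and miR-148a-3p, a regulator of the DNA methyltransferase DNMT1, ranked 1 and 2. miR-21-5p held 3690 counts in M0-exo (27.2%) and 1937 in M2-exo (19.5%), a ratio of shares of 0.718 (interval 0.679 to 0.759). miR-148a-3p held 1704 (12.5%) and 1356 (13.7%), a ratio of 1.09 (1.01 to 1.17). The library of M0-exo was thus the higher in miR-21-5p, and both were close in miR-148a-3p. In M0-exo, miR-151a-3p came next with 825 counts (6.07%), and it ranked 5 in M2-exo with 399 (4.02%). The opposite exchange was seen for miR-30c-5p, which ranked 5 in M0-exo with 661 counts (4.87%) and 3 in M2-exo with 687 (6.92%). let-7f-5p, of the let-7 family of differentiation-linked miRNAs, ranked 4 in both, at 5.93% and 6.19%. let-7i-5p ranked 6 in both, at 3.86% and 3.72%. miR-155-5p, a miRNA induced in activated macrophages, held 255 counts in M0-exo and 257 in M2-exo, a ratio of 1.38 that became 1.10 after the TMM scaling described below. Of the 15 most abundant entries of each library, 14 were the same, and of the 20 most abundant, 18.

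**Figure D1:**
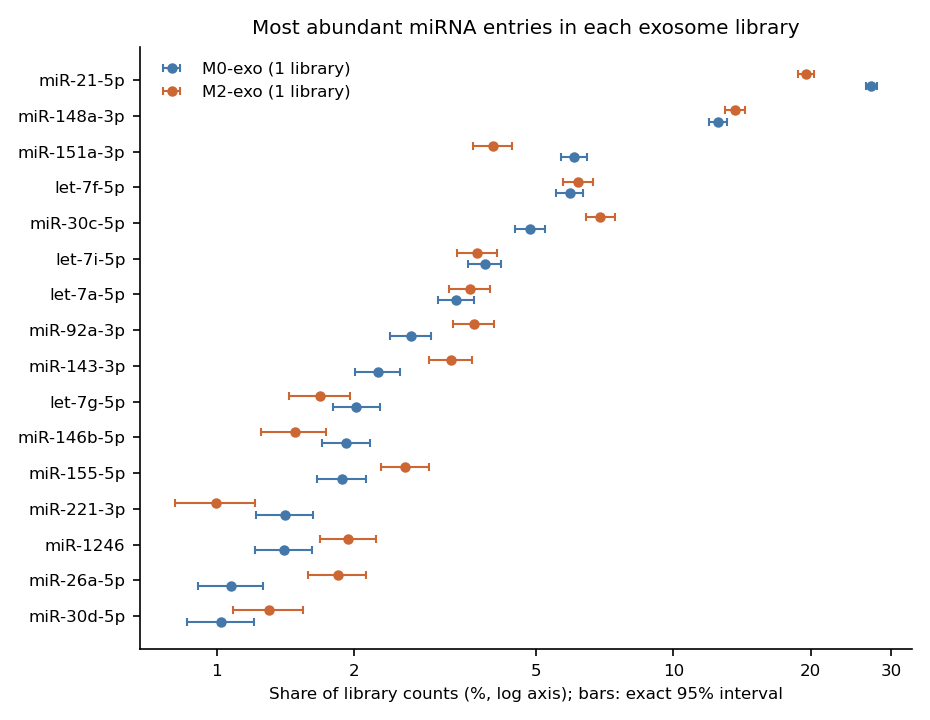
Share of library counts (percent, log axis) for every entry among the 15 most abundant of either library, with exact 95% intervals for counting error; M0-exo and M2-exo are 1 library each. miR-21-5p leads both, with 27.2% in M0-exo and 19.5% in M2-exo, while miR-30c-5p, miR-92a-3p, miR-143-3p and miR-26a-5p sit further right in M2-exo.

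The rest of the distribution was alike in both. The first 50% of counts were reached with 4 entries in M0-exo and 5 in M2-exo, and 90% with 35 and 38. The 20 most abundant entries took up 83.1% of the counts in M0-exo and 80.5% in M2-exo, and entries under 10 counts held 2.67% and 3.61%. The effective number of entries, the inverse Simpson index that equals the number of equally abundant entries with the same concentration, was 9.48 in M0-exo and 13.3 in M2-exo. Without miR-21-5p these numbers were 16.7 and 17.4, so most of the gap in concentration went with that 1 miRNA. Across the 76 entries with at least 20 counts over both libraries, the counts of the 2 libraries had a Spearman rank correlation of 0.838, a description across entries of 2 libraries and not of replicates.

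**Figure D2:**
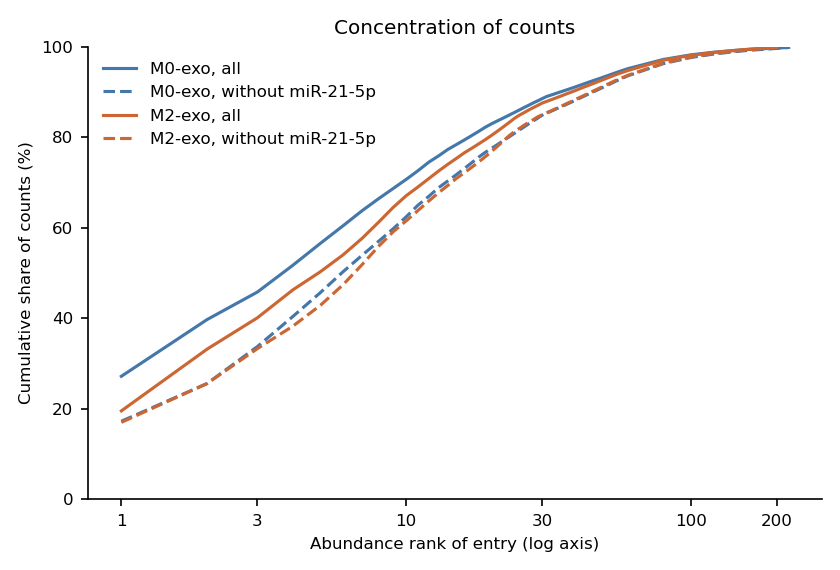
Cumulative share of counts (percent) against abundance rank (log axis) in M0-exo and M2-exo, with all entries (solid) and without miR-21-5p (dashed). The first 3 entries reach 45.8% in M0-exo and 40.1% in M2-exo; without miR-21-5p the lines of both libraries lie close together.

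Differences between the libraries were sought among those 76 entries, which took up 96.8% of the counts of M0-exo and 96.7% of those of M2-exo. An entry was called when the ratio of its share in M2-exo to that in M0-exo was at least 1.5 or at most 0.667. A larger share in M2-exo was called for 19 entries (25.0% of those examined) and a smaller share for 12 (15.8%). The interval of the ratio excluded 1 in 11 of the 19 and in 4 of the 12. The other 45 entries lay between the limits, and the interval excluded 1 in 12 of these, miR-21-5p included. Over all 76 entries it excluded 1 in 27. With the TMM scaling described next, the intervals of the called entries excluded 1 in 3 of the 19 and in 11 of the 12. With the limits set at 2 and 0.5, 7 entries (9.21%) and 2 entries (2.63%) were called. This balance depended on the scaling. The median ratio was 1.20, and shares of 1 total cannot all be larger: totals without miR-21-5p divide each ratio by 1.11. TMM factors, which centre on the middle of the ratios, divide each ratio by 1.26 (log2 0.33) and turned the split of 19 and 12 into 8 and 18. Division by the median ratio gave 9 and 17, and totals without miR-21-5p gave 12 and 15. The 19 entries together took 5.38% of the counts in M0-exo and 9.29% in M2-exo, and the 12 took 8.93% and 5.61%.

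Larger ratios sat among the rarer entries. Of the 19 entries with 200 or more counts over both libraries, 1 was called in each direction, and ratios ran from 0.662 to 1.71. Of the 31 with at least 50 but under 200 counts, 8 were called with a larger and 6 with a smaller share. Of the 26 with 20 to 49 counts, 10 and 5 were called, with ratios from 0.274 to 3.42. Counting error is widest there, as the intervals below show.

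**Figure D3:**
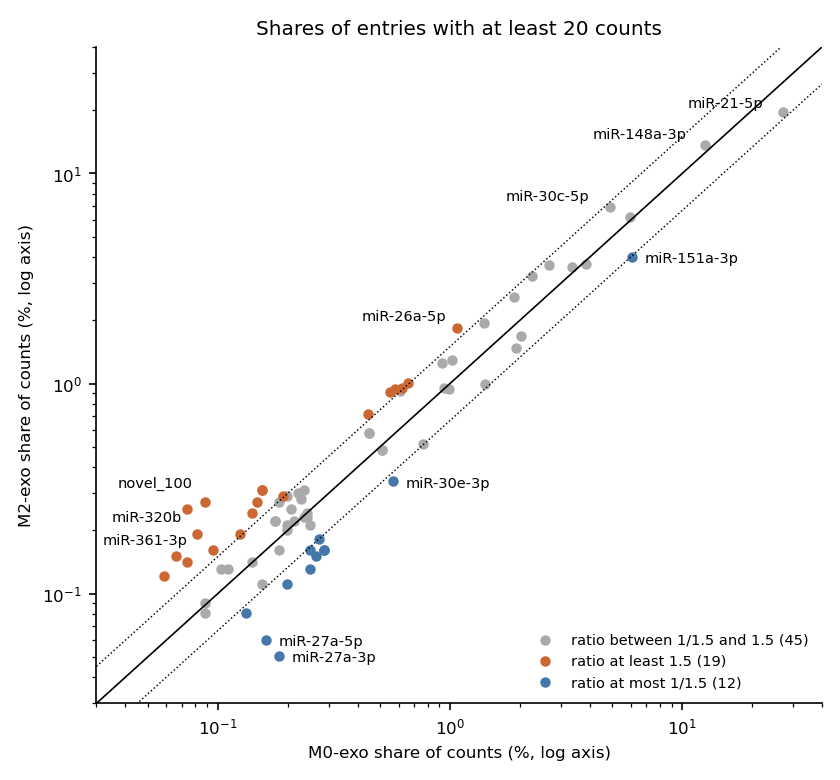
Share of counts in M2-exo against M0-exo (percent, log axes) for the 76 entries with at least 20 counts over both libraries; the solid line marks equal shares and the dotted lines ratios of 1.5 and 1/1.5. The 19 called with a larger share in M2-exo and the 12 called with a smaller share lie mostly below 1% of counts, with miR-26a-5p and miR-151a-3p the most abundant of each kind.

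The larger shares in M2-exo were led by miR-320b, with 10 counts against 25 (M0-exo first, as in the values that follow; ratio 3.42, interval 1.59 to 7.98). Its relative miR-320a is known to be processed without the nuclease Drosha, unlike most miRNAs. Next was an entry that the authors numbered and did not name, novel_100, with 12 and 27 counts (3.08, 1.51 to 6.67). The other 2 numbered entries were novel_76, with 6 and 9 counts, and novel_91, with 1 and 8. Together the 3 held 19 and 44 counts (ratio 3.17, 1.81 to 5.75), a sum formed after their values were seen. All 3 had a larger share in M2-exo. The files give no sequence for them.

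Further large ratios were those of miR-361-3p, at 11 and 19 counts (2.36, 1.07 to 5.50), and miR-342-3p, at 9 and 15 (2.28, 0.935 to 5.91). The pair miR-203a-3p and miR-203b-5p, with equal counts, stood at 2.02 (1.12 to 3.70). miR-26b-5p held 8 and 12 counts (2.05, 0.771 to 5.79). Its abundant relative miR-26a-5p, which restrains the chromatin enzyme EZH2, held 146 and 183 (1.71, 1.37 to 2.15). With column totals, intervals thus included 1 for miR-342-3p and miR-26b-5p but not for miR-361-3p, the miR-203 pair or miR-26a-5p. With TMM scaling, only 3 of the 19 entries called with a larger share had an interval that excluded 1. The red blood cell miRNAs miR-451a, which is cut by AGO2 instead of Dicer, and miR-486-5p together held 174 and 195 counts (1.53, 1.24 to 1.89). For these, TMM scaling brought miR-451a to 1.21 and miR-486-5p to 1.23.

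The remaining entries called with a larger share were miR-218-5p, miR-183-5p, miR-128-3p, miR-200b-3p, miR-23a-3p and miR-25-3p, all with intervals that included 1, and miR-320a-3p, miR-222-3p and miR-425-5p, with intervals that did not. Their ratios ran from 1.53 for miR-25-3p and miR-23a-3p to 1.92 for miR-218-5p. These ratios and intervals also use column totals.

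The smaller shares in M2-exo were led by both arms of the miR-27a hairpin. miR-27a-3p, a regulator of fat cell differentiation, held 25 counts in M0-exo and 5 in M2-exo (0.274, 0.0818 to 0.728), and miR-27a-5p held 22 and 6 (0.373, 0.124 to 0.949). miR-28-3p held 34 and 13 counts (0.523, 0.253 to 1.02), miR-140-3p 27 and 11 (0.557, 0.250 to 1.16) and miR-99b-5p 36 and 15 (0.570, 0.290 to 1.07). The equal entries miR-24-3p and miR-3074-5p held 39 and 16 each (0.561, 0.293 to 1.03). Of these, the interval with column totals excluded 1 only for the miR-27a arms. Intervals that excluded 1 were also found for miR-30e-3p, at 77 and 34 counts (0.604, 0.391 to 0.916), and miR-151a-3p. The latter is encoded within the gene of the focal adhesion kinase PTK2. Also called with a smaller share were miR-532-5p, miR-103a-3p and miR-103b, the last 2 being a reverse-complement pair. With TMM scaling, the interval excluded 1 in 11 of the 12 entries called with a smaller share.

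By seed, 204 groups were found, and 31 of them had more than 1 entry. For 6 entries without a matched sequence, the group was taken from the family name. The 14 groups with at least 2 entries and 50 counts took 48.2% of the counts in M0-exo and 53.3% in M2-exo. The effective number of seeds was 7.81 in M0-exo and 10.1 in M2-exo, and the 3 leading seeds held 56.1% and 49.6%. These were the seeds of miR-21-5p, of let-7 (GAGGUAG, 9 entries) and of miR-148a-3p.

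Of the 14 groups, 8 had ratios above 1, of which 3 reached 1.5, and let-7 stood at 1.00. Another 2 were at most 0.667. With TMM scaling 6 of the 14 were above 1. The largest was the miR-320 group, 90 counts in M0-exo and 124 in M2-exo (1.88, 1.43 to 2.5), and all 3 of its members had larger shares in M2-exo, miR-320c with 1 and 5 counts. The miR-26 group followed with 154 and 195 (1.73, 1.40 to 2.15). The third was the group of miR-200b-3p, miR-200c-3p and miR-429, miRNAs of epithelial cells, with 23 and 27 counts (1.61, 0.887 to 2.93). After TMM scaling these 3 groups stood at 1.5, 1.38 and 1.28.

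The miR-30 hairpins gave groups on both sides of 1. Their 5p group, led by miR-30c-5p, held 873 counts in M0-exo and 872 in M2-exo (1.37, 1.24 to 1.5). Without miR-30c-5p the ratio of that group was 1.19 (0.975 to 1.46). The 3p group, led by miR-30e-3p, held 80 and 34 (0.581, 0.377 to 0.879). The miR-27 group, of miR-27b-3p and miR-27a-3p, held 59 and 26 counts (0.603, 0.365 to 0.972). miR-146b-5p and miR-146a-5p, which dampen inflammatory signalling, held 365 and 198 counts together (0.742, 0.621 to 0.885). The let-7 group stood at 1.00 and TMM scaling put it at 0.794, while miR-148a-3p and its 2 relatives moved from 1.09 to 0.866, that of miR-30c-5p from 1.37 to 1.09, and the miR-92a-3p group from 1.39 to 1.11.

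**Figure D4:**
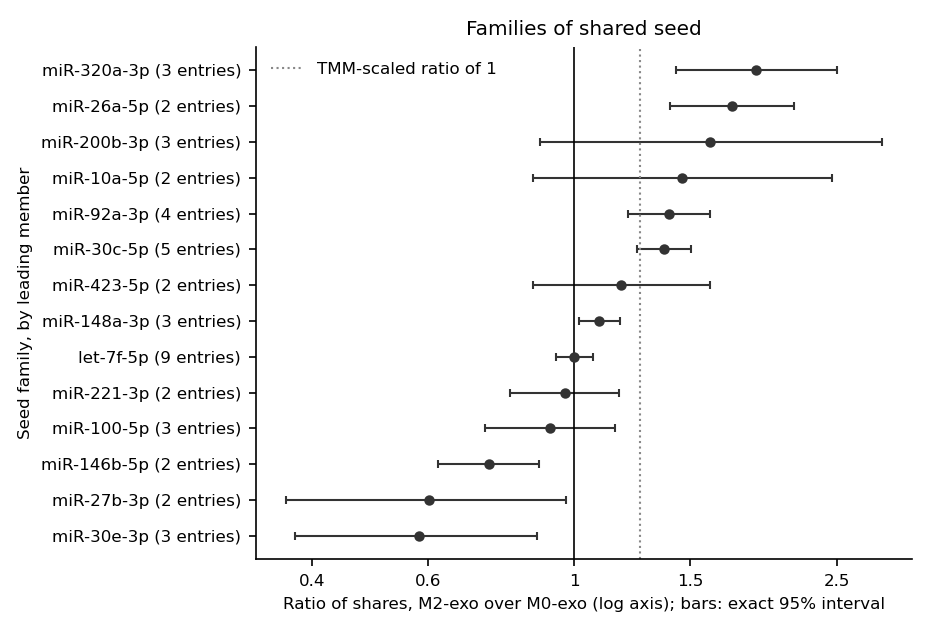
Ratio of shares, M2-exo over M0-exo (log axis), for the 14 seed groups with at least 2 entries and 50 counts, named by the leading member, with exact 95% intervals for counting error; the dotted line marks where a ratio of 1 falls after TMM scaling. The miR-320 and miR-26 groups stand at 1.88 and 1.73, and the miR-27 and miR-30 3p groups at 0.603 and 0.581.

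Members of 1 seed group were compared with each other. Each member with at least 20 counts was set against the leading member of its group, 17 pairs in all, and 6 pairs differed by at least 1.5 times. The interval of the ratio between members excluded 1 in 2 of the 17 pairs, and many of the others were wide. One was let-7g-5p, at 0.796 times the ratio of let-7f-5p (0.635 to 0.996). The other was miR-222-3p, whose ratio was 2.32 times that of miR-221-3p (1.54 to 3.51), with 75 and 90 counts against 192 and 99. miR-27a-3p stood at 0.328 times the ratio of miR-27b-3p, but the interval, 0.0848 to 1.06, included 1. These intervals were not adjusted for the number of pairs. The mature miR-27a-3p and miR-27b-3p, both of 21 bases, differ at 1 base, so how the counting divided reads between them is uncertain.

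Hairpins of 1 genomic cluster did not always keep the same balance. Clusters were formed from hairpins at most 10 kb apart in the RefSeq table, with only entries that come from 1 locus counted. Some listed hairpins within that distance were not joined, so some clusters lack a member. The cluster of miR-182 and miR-96 lacks miR-183-5p, at 20 and 27 counts, and that of miR-25 and miR-106b lacks miR-93-5p. Entries not matched to a sequence had no position and were counted in no cluster. The cluster of miR-191 and miR-425 thus lacks miR-425-5p, at 60 and 71 counts. That of miR-221 and miR-222 lacks miR-221-5p, at 12 and 7. Of the 12 clusters, as joined, with at least 2 entries of 1 locus and 50 counts, 7 had a ratio above 1 (4 with TMM scaling). The cluster of miR-23a, miR-27a and miR-24-2 lies on the minus strand at chr19:13836287-13836659 in GRCh38.p14, within the long noncoding gene MIR23AHG. It held 70 and 32 counts (0.625, 0.398 to 0.963). Within it miR-23a-3p held 17 and 19 counts, and the ratio of miR-27a-3p was 0.184 times that of miR-23a-3p (0.0447 to 0.637). That of miR-27a-5p was 0.250 times (0.0663 to 0.831). Of 10 cluster pairs formed in this way, 2 were reverse-complement pairs with equal counts, which cannot differ. Among the other 8, the interval excluded 1 in 3, these miR-27a arms and miR-222-3p against miR-221-3p. These 3 are not separate findings. The miR-27a arms come from 1 hairpin and were both set against miR-23a-3p. The pair of miR-221-3p and miR-222-3p was already among the seed pairs above. The 8 were not all separate: miR-423-3p and miR-3184-5p, a reverse-complement pair with nearly equal counts, were both set against miR-3184-3p. A further pair used miR-3074-5p, whose counts equal those of its reverse complement miR-24-3p, which comes from 2 hairpins.

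The smallest ratio of a cluster was that of miR-99b, let-7e and miR-125a, at chr19:51692612-51693339 within the span of SPACA6. It held 55 counts in M0-exo and 20 in M2-exo (0.497, 0.282 to 0.843), and miR-99b-3p alone held 13 and 2. Its entries miR-99b-5p, miR-99b-3p and let-7e-5p had ratios below 1, while miR-125a-5p had 1 count in each library. The largest was that of the miR-203 pair. The cluster of miR-143 and miR-145, known from smooth muscle and connective tissue, was uneven between hairpins: miR-143-3p held 306 and 324 counts and miR-145-5p held 0 and 3.

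The large placental cluster of chromosome 19, with miR-516b-5p, miR-520g-3p and others, held only 3 counts in M0-exo and 11 in M2-exo over 9 entries (5.02, 1.33 to 28.0). The stem cell cluster beside it, led by miR-372-3p, held 13 and 3 (0.316, 0.0577 to 1.15). This sum includes 2 reverse-complement pairs with equal counts, whose reads may be counted in both entries. They are miR-371a-3p with miR-371b-5p, at 2 and 0 each, and miR-371a-5p with miR-371b-3p, at 1 and 0 each. The imprinted cluster of chromosome 14 led by miR-379-5p held 10 and 15 over the 9 entries joined to it. Not joined, though within its span, were miR-381-3p, at 2 and 3 counts, and miR-412-5p, at 0 and 1. These 3 clusters were named after their values were seen.

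By arm, 5p products held 63.6% of counts in M0-exo (62.8 to 64.4) and 60.4% in M2-exo (59.5 to 61.4). 3p products held 33.4% and 35.2%, and entries named without an arm the rest. Without miR-21-5p, itself a 5p product, the 5p share was 50.1% in M0-exo and 50.8% in M2-exo. Both arms were listed for 47 hairpin names, 22 of them with at least 20 counts. The 5p arm led in both libraries in 11 of the 22 and the 3p arm in 10, and in miR-27a the lead differed between the libraries. In none of the 22 did the interval of the odds ratio between the libraries exclude 1, so no difference in arm choice was detectable at this depth.

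The most abundant hairpins used 1 arm almost alone. miR-21-3p was listed with 1 count in M0-exo and 0 in M2-exo against 3690 and 1937 of miR-21-5p. For miR-148a the 5p arm had 1 and 0 counts against 1704 and 1356, and for miR-151a 1 and 0 against 825 and 399. Taking 3 counts as the most that a 0 leaves room for, a 0 allows a share of up to 0.0302% in M2-exo and 0.0221% in M0-exo. The upper ends of the exact two-sided intervals, 0.0371% and 0.0272%, are somewhat higher.

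In several hairpins the 3p arm led. Of the miR-30e counts, 78.6% in M0-exo (69.1 to 86.2) and 75.6% in M2-exo (60.5 to 87.1) came from the 3p arm. In miR-106b, which lies with miR-25 within the span of the replication gene MCM7, the 3p arm had 27 and 21 counts and the 5p arm 2 and 0. In miR-28 the 3p arm had 34 and 13 and the 5p arm 0 and 1. In miR-361 they were 11 and 19 against 1 and 0. The arms of miR-27a were close to even, with 22 counts of 5p and 25 of 3p in M0-exo and 6 and 5 in M2-exo. The even arms of miR-486, and the mirrored arms of miR-423 and miR-3184, fall under the limit on strand given above.

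**Figure D5:**
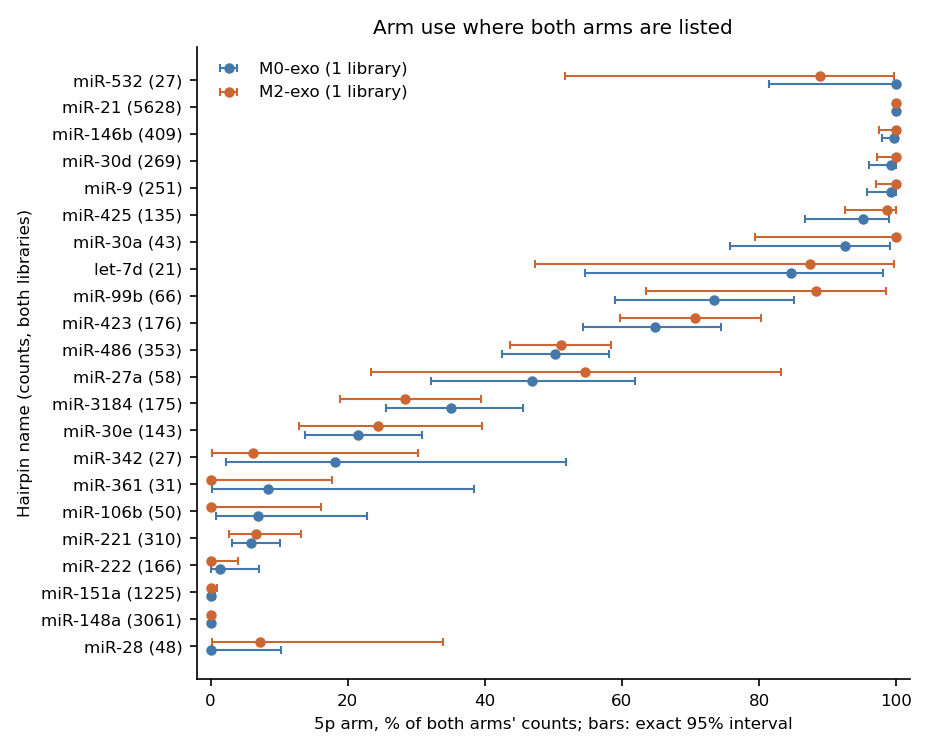
Share of the 5p arm among the counts of both arms (percent) for the 22 hairpin names with both arms listed and at least 20 counts, in M0-exo and M2-exo, with exact 95% intervals. Most hairpins sit near 0% or 100% in both libraries; miR-27a, miR-486, miR-423, miR-3184 and, less so, miR-30e and miR-99b lie between, and the intervals of the 2 libraries overlap in every hairpin shown.

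Of the 286 entries, 154 were found in both libraries and took 99.2% of the counts in M0-exo and 99.3% in M2-exo. M0-exo alone held 78 entries, 54 of them with 1 count, 20 with 2 and 3 with 3 counts. The highest was miR-365b-5p with 4. M2-exo alone held 54 entries, 39 with 1 count, 10 with 2 and 5 with 3. Among the 5 were miR-145-5p, miR-199a-5p, miR-365a-3p, miR-516b-5p and miR-574-3p. The share of miR-365b-5p in M0-exo, 0.0294%, is also below what a count of 0 allows in M2-exo, and its ratio had an interval of 0 to 2.07. Presence in 1 library only was therefore not shown for any of these entries at this depth. The M0-exo list included miR-142-3p and miR-223-3p with 2 counts each.

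Those 2 were taken here as markers of myeloid cells, to which THP-1 belongs. Their other arms were as rare: miR-142-5p had 5 counts in M0-exo and 1 in M2-exo, and miR-223-5p 1 and 1. The less specific myeloid miRNAs miR-21-5p, miR-155-5p and miR-146a-5p were abundant, and miR-424-5p was not among the entries. Together 7 of the 8 listed myeloid markers held 29.9% of counts in M0-exo and 22.6% in M2-exo, nearly all of it miR-21-5p and miR-155-5p. Their ratio was 0.757 (0.719 to 0.798). Both arms of miR-142 and miR-223 were thus close to 0 in these exosome libraries. miRNAs of other cell types were listed in both libraries. The mesenchymal markers held 313 and 337 counts (1.47, 1.26 to 1.72), nearly all miR-143-3p. The neural markers held 127 and 125 (1.35, 1.04 to 1.74), nearly all miR-9-5p. Of 11 epithelial markers, 8 were listed and held 50 and 67 (1.83, 1.25 to 2.70), of which 21 and 31 were miR-203a-3p. The ratios of these lists use column totals, and TMM scaling divides each ratio by 1.26. The counts of miR-203a-3p cannot be told from those of miR-203b-5p. The red blood cell markers held 174 and 195 (1.53, 1.24 to 1.89), with miR-144-3p and miR-144-5p not among the entries. Liver miR-122-5p held 24 and 22, endothelial miR-126-3p 31 and 28 and muscle miR-1-3p 27 and 20. The intervals of the liver, endothelial and muscle lists included 1. The part of other cell types in these counts was not tested.

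The sequences of the cargo shared features that the choice of entries did not use. A first base of U, which Argonaute proteins favour, was found in 51.0% of the 249 matched entries, against 36.8% of the 2370 human mature miRNAs in the RefSeq table. Weighted by counts it was 88.0% in M0-exo and 87.3% in M2-exo. Sequences of 22 bases held 75.6% and 70.4% of matched counts, and shorter ones 6.86% and 9.07%. The share of the shorter ones, led by miR-143-3p, was 1.32 times as large in M2-exo (1.20 to 1.46), and 1.18 times (1.07 to 1.30) without miR-21-5p. Longer sequences also had a larger share in M2-exo, at 1.17 times (1.098 to 1.245), and 1.04 times (0.977 to 1.11) without miR-21-5p. The 22-base class includes miR-21-5p, and none of these ratios was TMM scaled. These lengths are those of the reference sequence and not of the reads. GC content weighted by counts was 40.8% in M0-exo and 41.3% in M2-exo. Without weighting it was 48.5% over the entries and 52.4% over all human mature miRNAs.

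The letters GGAG and CCCU, known as motifs linked to the sorting of miRNAs into exosomes, were searched on the mature strand alone. GGAG was held by 7.63% of the matched entries and by 15.7% of all human mature miRNAs. Entries with GGAG took 2.22% of matched counts in M0-exo and 2.88% in M2-exo, and most of these counts came from miR-1246, at 191 and 193. CCCU was held by 9.24% of entries and 11.9% of all human mature miRNAs, and took 1.41% and 1.75% of matched counts. The share of GGAG entries was 1.30 times as large in M2-exo (1.09 to 1.54), and 1.15 times (0.967 to 1.37) without miR-21-5p. That of CCCU entries was 1.23 times as large (0.987 to 1.54), and 1.10 times (0.879 to 1.38) without miR-21-5p. The interval thus excluded 1 only for GGAG with miR-21-5p in the totals, and none of these ratios was TMM scaled.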

How the data were processed

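For M0-exo and M2-exo, the table deposited by the authors has 1 row per miRNA entry, with read counts and TPM. The submitters' processing notes name Bowtie. For its version, the miRNA database and the strand setting, the sources used here state nothing. Each deposited TPM value equals the count per 1000000 of its column, to within 4.06e-05, so only counts were used. The gene tables were not used, and 6 of their columns match no sample of the series.

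Ratios of column shares were given exact 95% intervals, conditional on the summed count, and shares Clopper-Pearson 95% intervals (scipy 1.17.1, Python 3.11.15). TMM factors came from edgeR 4.0.16. The intervals were checked on simulated data with counting error alone, which could not show the effect of repeated reads or of spread between preparations. With 1 library per group, no test was made. Calls needed 20 counts over both libraries and a ratio past 1.5. Named entries were the 15 most abundant per library, the 10 highest and lowest ratios, arms with at least 20 counts, equal or reverse-complement pairs, leading family or cluster members and cell type markers. Others were named after their values were seen. The members, lists and limits were chosen with earlier results of these data known.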

Additional observations from a re-analysis of the deposited data

How the results depend on the processing

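Depth was 13584 counts in M0-exo and 9929 in M2-exo, which leaves wide intervals for entries of few counts, and no replicate shows the spread between preparations. No paired analysis was possible because each group has 1 library and no test was made. No library was left out for the same reason.

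The numbers of entries called with a larger and a smaller share in M2-exo, 19 and 12, were 7 and 2 at a ratio of 2, 9 and 7 with at least 50 counts, and 46 and 30 over all entries with counts in both libraries. They were 25 and 16 with at least 10 counts, and 19 and 10 with reverse-complement pairs counted once. TMM factors gave 8 and 18, the median of ratios 9 and 17, and totals without miR-21-5p 12 and 15. The last 3 divide every ratio by 1.26, 1.20 and 1.11.

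The 10 most abundant entries took 70.7% of counts in M0-exo and 67.1% in M2-exo. Without miR-21-5p this was 62.4% and 61.6%, among entries with at least 20 counts 73.0% and 69.4%, and with reverse-complement pairs counted once 72.2% and 68.5%. The effective number of entries in M0-exo moved from 9.48 to 16.7 without miR-21-5p. Entries with at least 5 counts numbered 105 in M0-exo and 97 in M2-exo. The 5p share was 50.1% and 50.8% without miR-21-5p, 46.6% and 49% as a share of entries, and 64.5% in M0-exo without reverse-complement pairs. Of the 12 clusters, 7 were above 1, against 4 with TMM factors. Without their most abundant member 3 of 11 were above 1, and the cluster of miR-143-3p was left with miR-145-5p at 0 and 3 counts and no ratio. These numbers hold for the clusters as joined. That of miR-182-5p was left with miR-96-5p alone, at 1 and 0 counts, because miR-183-5p, at 20 and 27, was not joined to it. That of miR-191-5p was left with miR-425-3p alone, at 3 and 1 counts, because miR-425-5p, at 60 and 71, had no matched sequence. The seed groups of let-7f-5p (1.00), miR-148a-3p and miR-423-5p were below 1 with TMM factors, at 0.794, 0.866 and 0.936. Intervals excluded 1 in 11 of the 19 and 4 of the 12 called entries, in 3 and 11 of them with TMM factors or the median of ratios, and in 10 and 8 with totals without miR-21-5p.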
